A study of Homo sapiens with 2 samples.

Results

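The genes described here build the actin cytoskeleton and the contractile machinery that pulls on it. They comprise the actins, transgelins, calponins, tropomyosins, myosin chains, filament crosslinkers, profilins, cofilins and gelsolin, the membrane linkers ezrin, radixin and moesin, the PHACTR proteins, and the transcription factor SRF with its cofactor myocardin. They were chosen by symbol: 48 symbols naming 47 genes (VIL2 is an older name of EZR), of which 42 had a probe in the series' probe annotation, with 54 probes in all among 24458 gene probes kept on each array. The remaining 5 genes (CFL1, FLNA, FLNC, MYL12B and TPM3) were not analysed here. RNA came from SW620 cells, a line established from a lymph node metastasis of a human colon carcinoma and grown here in DMEM with fetal bovine serum. On 1 array the cells had been made to express CDR1AS, a circular RNA that binds the microRNA miR-7 at many sites, and on the other they carried a control lentivirus. The labels name neither the vector and its promoter nor whether the cells were a clone or a pool.

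Actin monomers (G-actin) polymerise into filaments (F-actin), and profilin, cofilin and gelsolin govern how fast filaments grow, are cut and turn over. Alpha-actinins and fascin join filaments into networks and bundles, nonmuscle myosin II slides them against each other, and tropomyosin, calponin, caldesmon and transgelin bind along them. The pool of free G-actin also feeds back on transcription: it holds the MRTF coactivators and PHACTR proteins through their shared RPEL motifs, and MRTF released from G-actin activates SRF, which binds CArG boxes near many actin and contractile genes.

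The CArG boxes of these genes are shown because SRF is itself among the genes measured and CArG boxes are the letters it binds. Promoters of 33 of the 42 genes were found in RefSeq (GRCh38.p14), and the 250 bases before the annotated start were searched for an exact CArG box, whose pattern reads the same on both strands. A box was found for 8 of these 33 genes (24.2%), against 407 of all 35116 RefSeq promoters of the same length (1.16%). For each of the 33 genes 1 promoter was searched, while the 35116 are all entries, not reduced to 1 per gene. The motif GGAATG or its reverse complement CATTCC, bound by TEAD factors, lay in 5 of the 33 (15.2%), against 11.9% of all promoters. A match is a run of letters and not a shown binding site. Each line gives a box in capitals with up to 10 bases on either side, 5' to 3' on the strand of the gene, all upstream of the annotated start of the gene.
ACTG1 at chr17:81512874-81512903, minus strand: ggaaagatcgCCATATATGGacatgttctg
ACTC1 at chr15:34795639-34795668, minus strand: gcgaaggggaCCAAATAAGGcaaggtggca
ACTA1 at chr1:229434172-229434201, minus strand: tgcccaacacCCAAATATGGctcgagaagg
ACTG2 at chr2:73892888-73892917, plus strand: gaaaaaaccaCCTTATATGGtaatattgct
ACTG2 at chr2:73892925-73892954, plus strand: cgtcagctggCCTTTTTAGGgactttgttt
CNN2 at chr19:1026509-1026538, plus strand: cgcctccaggCCTTATAAGGacatttgcgc
TPM4 at chr19:16067355-16067384, plus strand: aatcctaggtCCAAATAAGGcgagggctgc
MYLK at chr3:123620623-123620652, minus strand: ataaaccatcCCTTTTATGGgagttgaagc
For SRF all 250 bases are shown, because its boxes lie 30 and 10 bases before the start.
SRF at chr6:43171019-43171268, plus strand: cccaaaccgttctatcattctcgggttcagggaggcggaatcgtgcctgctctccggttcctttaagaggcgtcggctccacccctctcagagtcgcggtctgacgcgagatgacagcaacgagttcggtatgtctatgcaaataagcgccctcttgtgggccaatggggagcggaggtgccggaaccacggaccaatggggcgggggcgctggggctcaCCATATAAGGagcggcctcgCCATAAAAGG

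With 1 array per group there was no replicate, no test and no p-value, so all differences below compare 1 array with another. Values are deposited spot intensities in arbitrary units, given before normalization and not to be compared between probes. The arrays also differed in level, with blank means of 69.5 on the CDR1AS array and 65.9 on the control array. A pair of spots can therefore point the other way from its normalized ratio, as for TAGLN2 and CFL2 below. Differences between the arrays are read from the ratio. The log2 ratio is CDR1AS expressing cells over control cells after normexp correction with an offset of 50 and quantile normalization. Positive-control spots printed 24 times on each array gave log2 ratios with an SD of 0.085 and 0.19, which measures the spread within the arrays only. The background limit lay 2 SD over the mean of 384 blank spots, that is at 72.1 on the CDR1AS array and 69.1 on the control array. Gene values are those of the brightest probe, and 39 of the 42 genes were above background, 37 of them on both arrays. PHACTR1, ACTN2 and MYOCD (myocardin) were not above background on either array. As total RNA of a culture was measured, fewer cells of a kind and less RNA per cell cannot be told apart.

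TAGLN was the one gene of the 39 at or past 2-fold higher on the CDR1AS array, and PHACTR3 the one at or past 2-fold lower. Over all 16685 measured genes, 0.755% were at or past 2-fold higher and 0.575% at or past 2-fold lower. At 1.5-fold, a limit chosen after the values were seen, 5 of the 39 genes (12.8%) were higher, namely TAGLN, MYH10, MYH9, ACTN4 and PFN2, against 2.63% of all genes, and PHACTR3 alone was lower, against 2.24%. Of the 39 genes that have a value on both arrays in the authors' deposited table, with no filter on dim probes, 2 (TAGLN and MYH10) were at or past 2-fold higher, against 3.34% of all genes, and 1 (PHACTR3) at or past 2-fold lower, against 2.26%. There, by the authors' deposited table, 20.5% of these genes (8) were at or past 1.5-fold higher, against 9.27% of all genes. The median log2 ratio of the 39 genes was 0.09 against -0.00 over all genes, with 24 above 0 (61.5%, against 48.6% of all genes). These counts describe 2 arrays and were not tested.

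**Figure D1:**
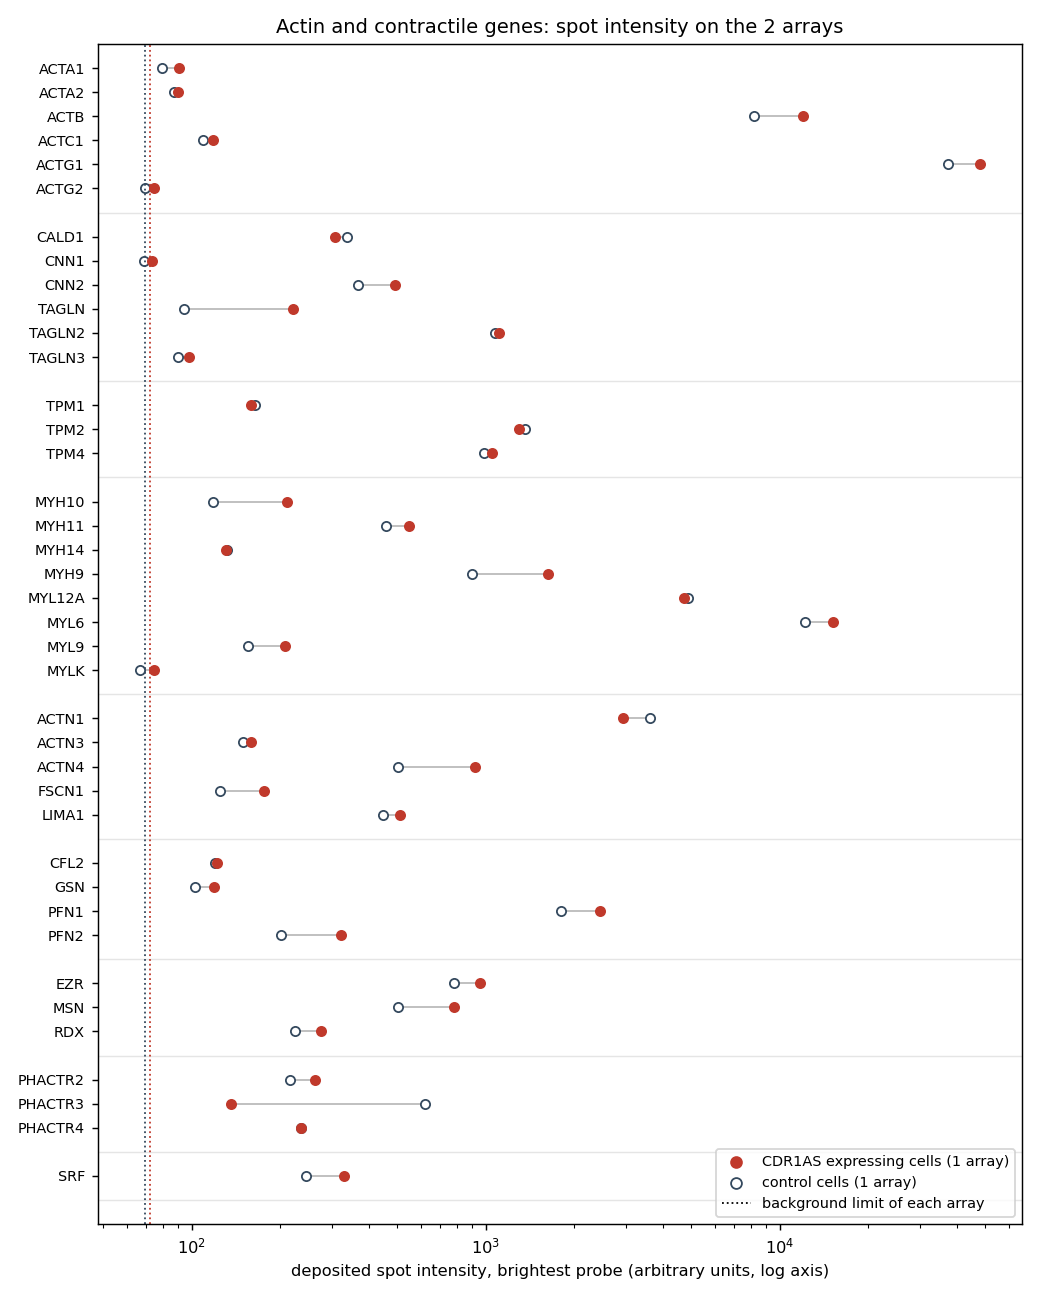
Deposited spot intensity (log axis, arbitrary units) of the brightest probe of each of the 39 genes above background, in blocks by role, with 1 filled point for the CDR1AS array and 1 open point for the control array. Dotted lines mark the background limits of 72.1 (CDR1AS array) and 69.1 (control array). Levels are not normalized and are to be compared within a row only. TAGLN, MYH10, MYH9 and ACTN4 lie to the right on the CDR1AS array and PHACTR3 far to the left.

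The actins were within 1.5-fold in the main setting. ACTG1, the cytoplasmic gamma-actin gene, had a spot intensity of 48053 on the CDR1AS array and 37158 on the control array. It held rank 7 among all probes on both arrays, so quantile normalization set its log2 ratio to 0.00, while scaling to a common median gave 0.33. ACTB, the cytoplasmic beta-actin gene, had 12018 on the CDR1AS array and 8165 on the control array, with a log2 ratio of 0.39 (1.31-fold higher). Both cytoplasmic actin spots were thus brighter on the CDR1AS array, by less than 2-fold, although with the local background subtracted ACTB had a ratio of -0.77 and ACTG1 of 1.49, past 2-fold higher. The muscle actin genes were close to background on both arrays. ACTA2, the smooth muscle alpha-actin gene, had 90.0 in CDR1AS expressing cells and 87.1 in control cells (log2 ratio -0.04) and its other probe gave 0.01. ACTG2, the enteric smooth muscle gamma-actin gene, had 74.2 on the CDR1AS array and 69.5 on the control array (0.01). The skeletal actin gene ACTA1 had a ratio of 0.13, with its other probe not above background on either array, and the cardiac actin gene ACTC1 of 0.03. Actin coding sequences are nearly alike and the probe sequences were not used here, so signal shared between actin probes was not tested.

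TAGLN encodes transgelin (SM22-alpha), an actin-binding protein of smooth muscle that is also made in mesenchymal and some carcinoma cells. Its brightest probe had 221 on the CDR1AS array and 93.7 on the control array, a log2 ratio of 1.27 (2.41-fold higher). The other TAGLN probe had 254 on the CDR1AS array and 78.7 on the control array, a ratio of 1.78 (3.44-fold higher). Both probes were thus past 2-fold in the same direction, and both lay within 1.5 times that array's background limit in the control cells, where the offset shrinks the fold most. In the authors' deposited table the brightest probe had 69.2 on the CDR1AS array against 13.3 on the control array, which is 5.20-fold higher, and the other probe had 84.4 on the CDR1AS array against 6.2 on the control array, which is 13.6-fold higher. The ratio of the brightest probe was 0.43, within 2-fold, with the local background subtracted. Per the RefSeq annotation TAGLN overlaps PCSK7 on the chromosome, and the transcript each probe detects was not tested. The same holds for ACTA2, which overlaps FAS, and for GSN, which overlaps RAB14.

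The measured relatives of TAGLN were within 1.5-fold, although TAGLN2 (1.44) and CNN2 (1.20) were past 2-fold higher with the local background subtracted. TAGLN2, the transgelin of epithelial and blood cells, had 1107 on the CDR1AS array and 1078 on the control array (log2 ratio -0.09), and TAGLN3, a neuronal form, had 97.9 in CDR1AS expressing cells and 89.6 in control cells (0.05). CNN1, the calponin of differentiated smooth muscle, was above background on the CDR1AS array only, at 73.0 against a limit of 72.1, and had 68.9 on the control array. CNN2, the calponin of nonmuscle cells, had 491 on the CDR1AS array and 368 on the control array (0.31). CALD1, which encodes caldesmon, had 307 on the CDR1AS array and 337 on the control array (-0.26).

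Tropomyosins line the actin filament and set which myosins reach it. All 3 measured genes were slightly below 0, between -0.17 and -0.02, although TPM4 was above 0 when the arrays were scaled to 1 median (0.05) and in the authors' deposited table (0.04). TPM2 had 1297 on the CDR1AS array and 1356 on the control array (-0.17), and TPM4 had 1052 in CDR1AS expressing cells and 985 in control cells (-0.02). TPM1 had 158 in CDR1AS expressing cells and 165 in control cells (-0.17), and its other probe, close to background, gave 0.01. With the local background subtracted TPM4 was past 2-fold higher (2.69). Its local background column read 399 on the CDR1AS array and 1059 on the control array.

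Among the myosin genes, the heavy chains of nonmuscle myosin II were unequal. MYH10, the heavy chain of form IIB, had 210 on the CDR1AS array and 118 on the control array, a log2 ratio of 0.81 (1.76-fold higher). Its other probe had 88.9 on the CDR1AS array against 72.3 on the control array, close to background, and gave 0.26. In the authors' deposited table these probes were 2.61-fold and 2.87-fold higher. MYH10 overlaps NDEL1 on the chromosome per the RefSeq annotation, and the transcript each probe detects was not tested. MYH9, the heavy chain of form IIA, had 1621 on the CDR1AS array and 895 on the control array, a ratio of 0.77 (1.71-fold higher). MYH14, the heavy chain of form IIC, had 131 in CDR1AS expressing cells and 132 in control cells (-0.12). MYH10 and MYH9 were thus brighter on the CDR1AS array and MYH14 was at like brightness on both.

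The myosin light chain genes were within 1.5-fold, although MYL12A was past 1.5-fold lower with the local background subtracted (-0.85). MYL9, a regulatory light chain, had 208 on the CDR1AS array and 155 on the control array (0.35). MYL6, the essential light chain of nonmuscle myosin, had 15209 in CDR1AS expressing cells and 12142 in control cells (0.13), and MYL12A, another regulatory light chain, had 4711 in CDR1AS expressing cells and 4866 in control cells (-0.19). MYLK, the kinase that phosphorylates the regulatory light chain, was above background on the CDR1AS array only (74.2 on the CDR1AS array, 66.5 on the control array). Its lower bound was 1.02-fold higher, which is within the SD of the repeated spots. With the local background subtracted its ratio was -0.05, so it lies too near background for a difference to be seen. MYH11, the smooth muscle myosin heavy chain, had a bright probe with 546 on the CDR1AS array and 456 on the control array (0.14). Its other probe was not above background on either array, at 69.0 on the CDR1AS array and 64.8 on the control array. The MYH11 gene overlaps NDE1 on the chromosome per the RefSeq annotation, and which transcript the bright probe detects was not tested.

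Among the crosslinkers, the nonmuscle alpha-actinins went opposite ways, although both were below 0 with the local background subtracted (ACTN4 -0.73, ACTN1 -1.95). ACTN4 had 920 on the CDR1AS array and 501 on the control array, a log2 ratio of 0.77 (1.71-fold higher), while ACTN1 had 2933 in CDR1AS expressing cells and 3611 in control cells, a ratio of -0.38 (1.30-fold lower). ACTN4 overlaps CAPN12 on the chromosome per the RefSeq annotation, and which transcript its probe detects was not tested. The muscle form ACTN3 had 159 in CDR1AS expressing cells and 149 in control cells (-0.00), and its other probe, close to background, gave 0.02. FSCN1, which encodes fascin, the bundler of filopodia, had 176 on the CDR1AS array and 125 on the control array (0.44, 1.36-fold higher). A dimmer FSCN1 probe had 114 in CDR1AS expressing cells and 80.1 in control cells (0.50), and the third was above background on the CDR1AS array only, at 73.6 on the CDR1AS array and 68.4 on the control array. LIMA1, also called EPLIN, which stabilises filaments at junctions, had 510 in CDR1AS expressing cells and 446 in control cells (0.08).

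Of the genes that govern monomers and turnover, PFN2 differed most. PFN2, the second profilin, had 321 on the CDR1AS array and 201 on the control array, a log2 ratio of 0.61 (1.52-fold higher). PFN1, the widespread profilin, had 2451 in CDR1AS expressing cells and 1807 in control cells (0.35). CFL2, the muscle-type cofilin that severs filaments, had 122 in CDR1AS expressing cells and 120 in control cells (-0.08). GSN, which encodes gelsolin, a severing and capping protein, had 119 in CDR1AS expressing cells and 103 in control cells (0.14), and its other probe was not above background.

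Ezrin, radixin and moesin tie filaments to the plasma membrane, and all 3 genes were above 0, although MSN (-1.89) and RDX (-0.13) were below 0 with the local background subtracted. MSN had 781 on the CDR1AS array and 501 on the control array for its brightest probe (0.53, 1.44-fold higher), but its other probe had 175 in CDR1AS expressing cells and 172 in control cells (-0.08). RDX had 276 in CDR1AS expressing cells and 224 in control cells (0.20). EZR had 954 in CDR1AS expressing cells and 780 in control cells (0.17), and its other probe gave 0.04. The probes of MSN thus disagreed, and the transcripts they detect are not known here.

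**Figure D2:**
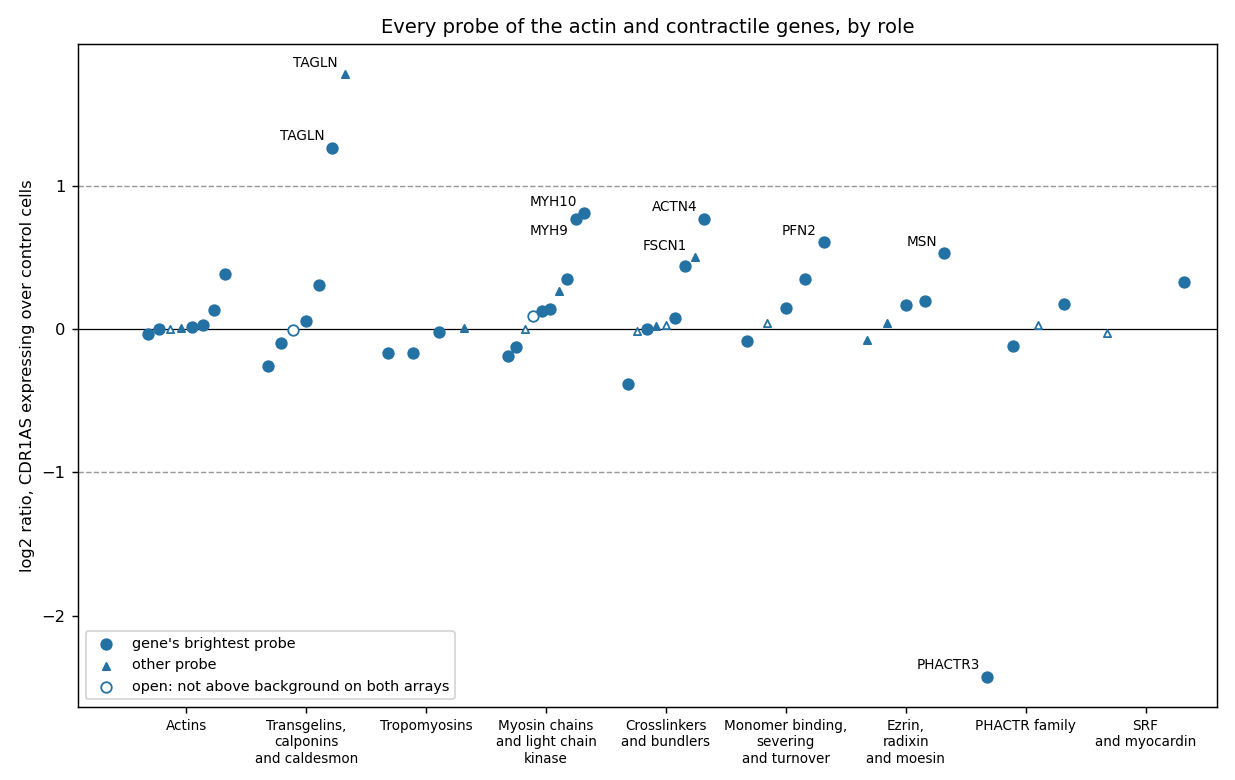
Log2 ratio of CDR1AS expressing over control cells for all 54 probes, by role. Large circles are a gene's brightest probe, triangles its other probes, open symbols probes not above background on both arrays, and dashed lines mark 2-fold. The TAGLN probes lie at 1.27 and 1.78, PHACTR3 at -2.43, and the other genes within 2-fold.

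PHACTR proteins bind G-actin and protein phosphatase 1. PHACTR3, also called scapinin, had 136 on the CDR1AS array and 619 on the control array, a log2 ratio of -2.43 (5.37-fold lower), and in the authors' deposited table it had 30.5 on the CDR1AS array against 263 on the control array, which is 8.64-fold lower. It was covered by 1 probe. The local background column beside that spot read 97.7 on the CDR1AS array and 614 on the control array, nearly the brightness of the control spot itself, and after its subtraction the ratio was 0.23. PHACTR2 had 262 on the CDR1AS array and 216 on the control array (0.18), and PHACTR4 had 235 on both (-0.12). PHACTR1 was not above background on either array, so PHACTR3 was the only one of the 3 measured family members past 1.5-fold.

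SRF had 328 on the CDR1AS array and 244 on the control array, a log2 ratio of 0.33 (1.26-fold higher). Its muscle cofactor MYOCD had 71.7 on the CDR1AS array and 68.5 on the control array, under both background limits. Of the genes with a CArG box shown above, SRF had a ratio of 0.33 and CNN2 of 0.31, and ACTA1 (0.13), ACTC1 (0.03), ACTG2 (0.01), ACTG1 (0.00) and TPM4 (-0.02) were nearer 0, while MYLK had only the lower bound given above. None of the 7 above background on both arrays was past 1.5-fold at the offset of 50, although SRF (1.18), CNN2, TPM4 and ACTG1 were past 2-fold higher with the local background subtracted. MYH10, MYH9 and ACTN4, which were past 1.5-fold, had no exact box in the 250 bases searched, and the promoters of TAGLN, PFN2 and PHACTR3 were not searched.

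The ratios depended little on the method of normalization, more on the offset and the deposited scale, and most on how the local background was treated. By more than the SD of repeated spots, 1 gene moved with scaling to a common median and 1 with cyclic loess. With the offset of 0 there were 6 such genes, and 10 in the deposited table. Across the offsets of 16 and 0, scaling to a common median, cyclic loess and the authors' deposited table, TAGLN ran from 1.27 to 2.38 and PHACTR3 from -3.11 to -2.38. MYH10 rose from 0.81 in the main setting to 1.38 in the deposited table. ACTN4 (-0.73), ACTB (-0.77) and MSN (-1.89) were below 0 after subtraction of the local background, and MYH9 was higher still (3.22), while MYH10 (0.20) and PFN2 (0.05) were within 1.5-fold. That column may not measure background alone: across all 24458 gene probes it had a rank correlation with the brightness of the spot itself of 0.93 on the CDR1AS array and 0.97 on the control array. At these spots it also differed between the arrays. It was 673 on the CDR1AS array and 258 on the control array beside ACTN4, 742 on the CDR1AS array and 252 on the control array beside MSN, and 509 on the CDR1AS array and 905 on the control array beside MYH9.

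**Figure D3:**
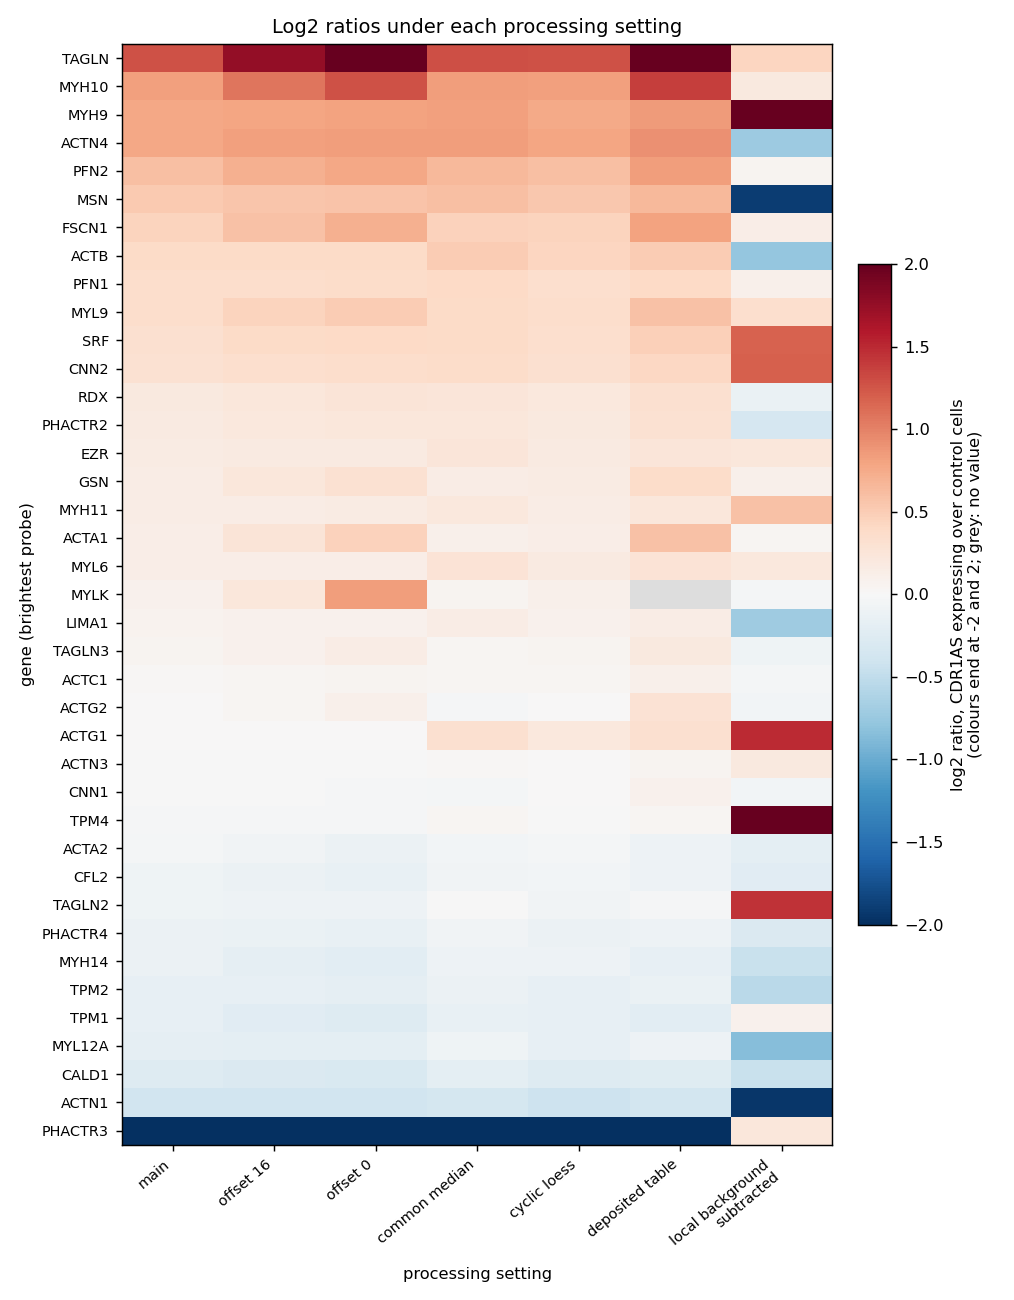
Log2 ratio of CDR1AS expressing over control cells for the brightest probe of each gene (rows, ordered by the main ratio) under 7 processing settings (columns), with colours ending at -2 and 2 and grey where there was no value. TAGLN heads and PHACTR3 ends the order in the first 6 columns, and the column with the local background subtracted differs from the others.

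Other genes of the actin system were compared by list, with the genes above left out. Over all measured genes 48.6% were above 0 and 0.755% at or past 2-fold higher. Of 33 measured MRTF and SRF cofactors and direct targets, 26 were above 0 (78.8%) and the median was 0.11. FHL2 alone was at or past 2-fold (3.03%). FHL2, a LIM-only cofactor that SRF activates, had 4649 on the CDR1AS array and 1382 on the control array, a log2 ratio of 1.66 (3.15-fold higher). By the brightest probe, the LIM protein gene LPP followed (0.59), and FOS (-0.32, other probe 0.14) and CSRP1 (-0.29) were lowest. The probes of CCN2 disagreed, with 0.01 for the brightest and 0.72 for the other. Among 39 capping, thymosin and other regulators, 25 were above 0 (64.1%), the median was 0.08, and 2 (5.13%) were at or past 2-fold higher. ENAH, an elongation factor of lamellipodia and filopodia, had 207 on the CDR1AS array and 70.4 on the control array (1.67, 3.18-fold higher). SVIL, which encodes supervillin, a linker of actin and myosin to the membrane, had 207 in CDR1AS expressing cells and 78.9 in control cells (1.47, 2.78-fold higher). Both were dim on the control array. With the local background subtracted FHL2 had a ratio of 5.16, ENAH of 0.61 and SVIL of 0.45. ADD3, an adducin gene of the membrane skeleton, was lowest (-0.78), followed by CORO1A (-0.54).

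No gene of the other lists was at or past 2-fold. In the Arp2/3 complex and its activators, which seed branched filaments, 13 of 20 genes were above 0 (65%, against 48.6% of all genes, median 0.04). There the WAVE complex gene NCKAP1 had 0.90 and ARPC2 had 0.58, and ARPC4 (-0.21) and ARPC3 (-0.20) were lowest. Formins, which elongate unbranched filaments, lay between -0.07 and 0.25 (12 genes, median 0.02), with FHOD1 (0.25) and DAAM1 (0.08) highest and INF2 (-0.07) and DIAPH2 (-0.06) lowest. The medians of the 4 lists, from 0.02 to 0.11, stand beside -0.00 over all genes, and with the local background subtracted all 4 were at or below 0, from -0.09 to -0.00.

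**Figure D4:**
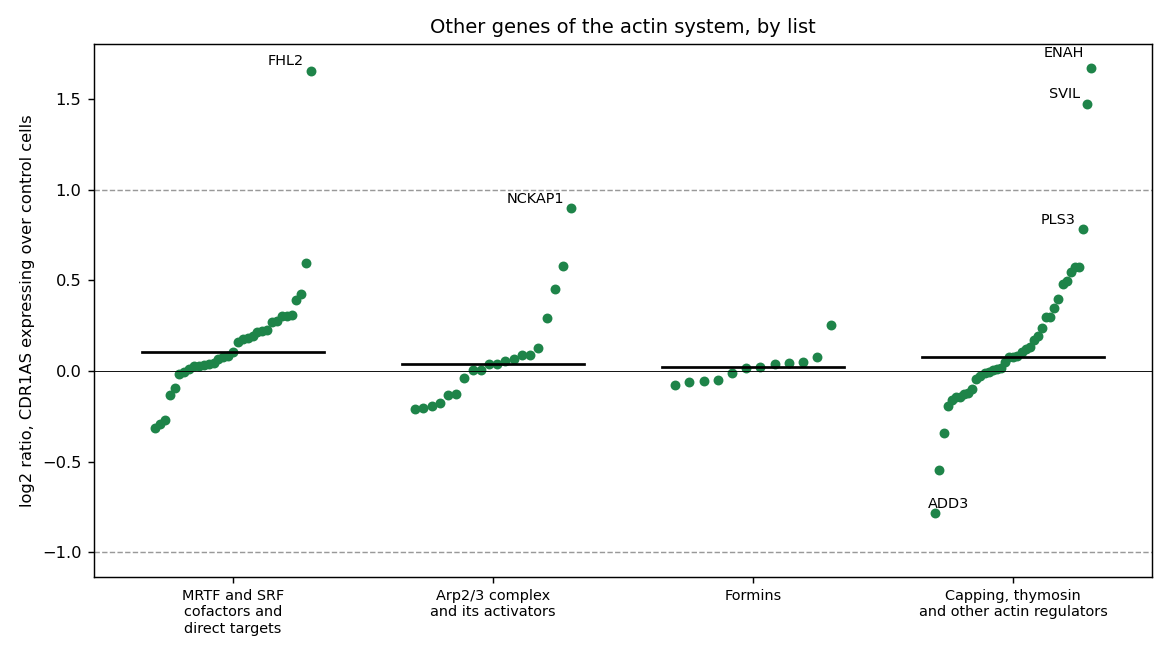
Log2 ratio of CDR1AS expressing over control cells for each measured gene (points) of 4 lists of the actin system, with the list median as a bar and dashed lines at 2-fold. FHL2, ENAH and SVIL lie above the upper line and no gene below the lower one.

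Position on the chromosome was checked because neighbouring genes can shift together. The 20 measured genes next to each of the genes past 1.5-fold had median log2 ratios of 0.01 (TAGLN), -0.02 (MYH10), -0.08 (MYH9), -0.01 (ACTN4), -0.00 (PFN2) and -0.09 (PHACTR3). Around NCKAP1 on chromosome 2 the median was 0.27, with 19 of 20 neighbours above 0, against 48.6% of all genes. Other genes stood out too. ADD1 had 18 of 20 neighbours above 0 (median 0.18), and MYH11 (0.12) and WIPF1 (0.11, also chromosome 2) had 16 of 20. ADD2, on chromosome 2 as well, had 2 of 20 (-0.13).

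No measured marker of another cell type was at or past 2-fold in the main setting. Many of these markers lay near background on both arrays, where the offset shrinks the fold most. For such dim markers 2-fold could hardly be reached, so the counts past 2-fold below say little about them. In the authors' deposited table the largest difference among these markers with a value on both arrays was 1.67-fold lower (the striated muscle marker MB). All 13 measured colon epithelial markers were above background on both arrays, though PHGR1, CDX1 and KRT20 were close to it. The log2 ratio was above 0 for 7 of the 13 markers. Their summed intensity over the blanks was 68514 on the CDR1AS array and 72634 on the control array. Such sums mix probes and follow the brightest ones. Most of this sum was KRT18, with 47565 on the CDR1AS array and 56040 on the control array. Of the colon epithelial markers KRT19 was 1.78-fold higher and CDX2 1.76-fold lower. EPCAM had 6334 on the CDR1AS array and 8538 on the control array. Its log2 ratio was -0.54 and its other probe gave -0.76, but with the local background subtracted the ratio was 2.12. Of 12 smooth muscle markers, a list without TAGLN (2.41-fold higher), 9 were measured and 0 were past 2-fold. Their summed intensity over the blanks was 1044 on the CDR1AS array and 961 on the control array. The largest part of it was the bright MYH11 probe, whose transcript was not tested. That probe had 546 on the CDR1AS array and 456 on the control array, with the blanks not taken off. LMOD1, CNN1 and ACTG2 were at or near background. Of 11 fibroblast markers 6 were measured and 0 were past 2-fold, with 399.6 on the CDR1AS array and 412 on the control array, and COL1A1, COL1A2 and COL3A1 were not above background on either array. The striated muscle (11 measured), leukocyte (5) and endothelial (5) markers had 0 past 2-fold as well. Their summed intensities were 638, 227 and 179 on the CDR1AS array and 755, 218 and 149 on the control array. The endothelial marker PECAM1 was above background on the CDR1AS array only (98.3 on the CDR1AS array, 66.4 on the control array). Its log2 ratio was 0.58 in the main setting, and it had no control value in the authors' deposited table.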

How the data were processed

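Total RNA from 1 culture of CDR1AS expressing and 1 of control SW620 cells was amplified, coupled to Cy5 and hybridised to 1-colour arrays by Toray's protocol, per the labels' protocols. The deposited intensity of a spot is its median brightness at 635 nm, read at 3 scanner gains, per the file headers. It was not background-corrected by the authors. Scanner software and the design's genome build were not given in the sources used here. The authors' deposited value table was a straight line of each array's spot intensity on a linear scale, with 0 near the blank spots, medians of 25 and no centring of genes.

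The arrays were processed in R 4.3.3 with limma 3.58.1: normexp without the local background, an offset of 50, quantile normalization over 24458 gene probes (1 flagged probe left out) and log2. On this scale dim genes have folds shrunken towards 1. A gene is its brightest probe and was kept if 1 array or both exceeded the background limit. Where only 1 array did, the fold is a lower bound, set against the dim probe's own value or, if higher, the lowest value over the limit. The platform annotation named the probes (21706 probes with 1 symbol, 2752 with none). The steps were tested on simulated data. Members, gene lists and the fold limits were chosen with earlier results of these data known. All probes of the members are described. Of each further list, the 2 highest and 2 lowest genes and those past 2-fold are named, and 1 list is not reported here. Sequences are from RefSeq, GRCh38.p14. Precision is limited by the number of arrays. The 9 alternatives are in the closing section.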

Additional observations from a re-analysis of the deposited data

How the results depend on the processing

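No paired analysis was possible because each group was 1 array, and no replicate could be left out. The count at or past 2-fold higher was 1 in the main setting and 2 (TAGLN and MYH10) with an offset of 16, with an offset of 0 and in the deposited value table. Over all genes the shares in these settings also rose, from 0.755% to 1.40%, 2.60% and 3.34% in that order. With the stricter filter, 2 times the background limit on both arrays, 0 were higher and 0 lower among 25 genes, since TAGLN and PHACTR3 were each dim on 1 array. Over all genes passing that filter 1.01% were higher and 0.879% lower. After subtraction of the local background 6 were higher (ACTG1, CNN2, MYH9, SRF, TAGLN2 and TPM4) and 2 lower (ACTN1 and MSN). Over all genes 4.72% were then higher and 3.48% lower. The ratio of PHACTR3 turned to 0.23 there, and the cause was not tested. The count at or past 1.5-fold higher, chosen after seeing the data, was 5, ran from 4 to 7 under 7 alternatives, was 8 in the deposited value table and 3 with the stricter filter. Over all genes the share was 2.63%, and it ran from 2.36% to 8.74% under those 7 alternatives. It was 9.27% in the deposited value table and 3.83% with the stricter filter. The genes changed most with the local background subtracted: the 6 past 1.5-fold higher were the same 6 as past 2-fold higher. Of the 5 genes of the main setting, only MYH9 was among them. The count at or past 1.5-fold lower was 1, 0 with the stricter filter and 6 after subtraction of the local background. Over all genes the shares in these settings were 2.24%, 3.70% and 8.47%. The median of the genes was 0.09 and ran from 0.03 (local background subtracted) to 0.25 (deposited value table), where the median over all genes was 0.04. The list of MRTF and SRF targets had a median of 0.32 in that table. With the local background subtracted its median was -0.01, that of the Arp2/3 list -0.04, that of formins -0.09 and that of the capping list -0.00. Ratios of single genes moved by more than the SD of repeated spots for 24 further genes after subtraction of the local background, and for at most 10 under any other alternative. Dim genes such as ACTG2 and CNN1 lie too near background for a difference to be seen.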
